A study of Homo sapiens with 6 samples.

Results

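Before a cell copies its DNA, origins of replication have to be licensed. The 10 genes described here encode factors that carry out this step, restrain it or act after it. They are GMNN, CDT1, CDC6, DBF4 and the 6 subunits of the origin recognition complex, ORC1 to ORC6. They were found by symbol in the spike-in normalized expression table, where they are 10 of 23030 genes (the raw count tables list 58174). The genes were selected on earlier results of the same libraries, so the difference between the conditions helped to choose them and their own differences are given as a description. Intervals and calls of the 10 come from the fit over all genes and are not independent evidence. All 10 passed the filter on low values, a mean above 10 in spike-in normalized CPM (counts scaled to a common library total), which left 9697 genes.

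The study asked how the protein kinase DYRK1A shapes the transcriptome of T98G, a human glioblastoma cell line. In 3 libraries the cells had been infected with a lentivirus expressing a control short hairpin RNA (shControl), and in 3 others with one directed against DYRK1A (shDYRK1A). All cells of both groups had been through puromycin selection and a period of recovery without the drug, and equal numbers of T98G cells had been mixed with a fixed number of Kc167 cells, a Drosophila line, to give an external scale. Only 1 hairpin stands for the knockdown. The labels name the libraries 1A, 1B and 1C without saying whether they are separate cultures. The errors below therefore cover these samples only, and the SE draws on the spread of all tested genes.

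As background, licensing takes place from late mitosis through G1. The origin recognition complex binds chromatin, CDC6 and CDT1 join it, and together they load the MCM2-7 helicase as an inactive double hexamer. Geminin, the product of GMNN, binds CDT1 and blocks reloading in S and G2, and the kinase CDC7 with its activator DBF4 switches the loaded helicase on. Several of these genes are known targets of E2F transcription factors and are transcribed in waves of the cell cycle, and tumour cells that divide, glioblastoma lines among them, express them.

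The promoters are shown because all further values are transcript levels, and words known from the promoters of cell cycle genes can be read in them. RefSeq (GRCh38.p14) holds 12 promoter entries of 300 bases for the 10 genes, with 2 start sites each for GMNN and ORC4. Windows from 100 bases before to 20 bases after the start site are given 5′ to 3′ for the genes with a match. The E2F word searched was TTTCCCGC, TTTGGCGC, TTTCGCGC or TTTGCCGC on either strand, and the E2F core is the same word without its leading T. Capitals mark an E2F core or, in DBF4, a word of the cell cycle genes homology region (CHR), which is TTTGAA, or the same with a C as the third letter, on either strand. In ORC1 the matches on the opposite strands overlap.
GMNN, its second start site, chr6:24775313-24775432, plus strand: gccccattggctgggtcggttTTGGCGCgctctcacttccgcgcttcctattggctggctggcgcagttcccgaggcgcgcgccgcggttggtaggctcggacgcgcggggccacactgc
CDT1, chr16:88803689-88803808, plus strand: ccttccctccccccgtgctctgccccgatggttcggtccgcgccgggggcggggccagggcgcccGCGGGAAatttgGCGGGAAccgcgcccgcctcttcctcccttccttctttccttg
CDC6, chr17:40287779-40287898, plus strand: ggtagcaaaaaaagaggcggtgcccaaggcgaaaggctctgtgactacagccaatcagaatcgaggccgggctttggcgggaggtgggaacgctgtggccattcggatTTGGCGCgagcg
DBF4, chr7:87876393-87876512, plus strand: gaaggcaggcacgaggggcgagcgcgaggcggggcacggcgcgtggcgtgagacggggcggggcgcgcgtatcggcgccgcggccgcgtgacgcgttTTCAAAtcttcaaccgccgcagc
ORC1, chr1:52404404-52404523, minus strand: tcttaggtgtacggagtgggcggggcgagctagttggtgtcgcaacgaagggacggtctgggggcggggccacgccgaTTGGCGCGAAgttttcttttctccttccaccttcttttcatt
ORC3, chr6:87590035-87590154, plus strand: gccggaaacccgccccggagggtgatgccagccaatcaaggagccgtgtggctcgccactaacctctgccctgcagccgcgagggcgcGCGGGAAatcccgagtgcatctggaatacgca

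An E2F core word was thus present in 5 of the 10 genes (GMNN, CDT1, CDC6, ORC1 and ORC3), against 15.3% of all genes with a RefSeq promoter (13.0% of the 35116 promoters), and in 19 of the 33 pathway partners with an entry (the 42 partners are described below). The full E2F word, which contains the core, stood in GMNN, CDT1, CDC6 and ORC3, against 3.99% of genes (3.31% of promoters). The CHR word stood in DBF4 alone among the 10, against 19.5% of genes (16.4% of promoters), and a CCAAT box in 6 of the 10 (GMNN, CDC6, ORC1, ORC2, ORC3 and ORC6), against 39.7% of genes (34.6% of promoters). The palindrome that the study connects with DYRK1A on chromatin stood in 0 of the 10, against 0.505% of genes (0.424% of promoters). Only its exact letters were searched, whereas the study graded matches to the motif by p-value, so this count cannot be compared with its motif calls. With so rare a word, 0 of 10 decides nothing. These are matches of letters and say nothing about occupancy, and the windows of the 300 bases were the only ones searched. The promoter entries of the 10 genes were richer in G and C (median 62.8%, against 58.7% for all promoters). They also held more of the letter pair CG (median 25 against 14). Each E2F word searched holds a CG, and the part of base composition in its share was not tested.

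The libraries held 33708297 to 42154438 counts in human genes. The size factors taken from the spike-in ran from 0.821 to 1.03 in shControl and from 1.06 to 1.21 in shDYRK1A, so most transcripts lie lower in shDYRK1A on this scale: the median log2 fold change of all 9697 genes was -0.40, and 0.00 after TMM scaling, which uses the human genes alone. Fewer cells of a kind and less RNA per cell cannot be told apart in such bulk samples. Values per library are given in the order 1A, 1B, 1C throughout. DYRK1A itself stood at 2227, 2234 and 1895 normalized counts in shControl and at 1482, 1056 and 1285 in shDYRK1A, a log2 fold change of -0.73 (SE 0.15) on the spike-in scale and -0.34 with TMM. Among the markers of the line VIM, CD44 and FN1 were abundant (613 to 1975 CPM) and NES was low (1.29 to 2.02 CPM). SOX2 and the glial marker GFAP, at 0 to 4 counts per library, were almost absent. Of the genes the culture should lack, PTPRC, CDH1 and ALB reached at most 11 counts and EPCAM 1.68 CPM.

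All 10 licensing genes had less transcript in each shDYRK1A library than in any shControl library on the spike-in scale, a pattern that 63.6% of all tested genes showed. The size of the reduction differed between the genes, and no difference between genes was tested. GMNN, the gene of the inhibitor, kept 35.9% of its shControl mean. The loading and firing factors CDC6, DBF4 and CDT1 kept 49.7 to 55.7%, and the ORC subunits 60.4 to 73.9%. These groups run together: the 95% intervals of the log2 fold changes of CDT1 (-1.13 to -0.56) and ORC1 (-1.01 to -0.44) overlapped.

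**Figure D1:**
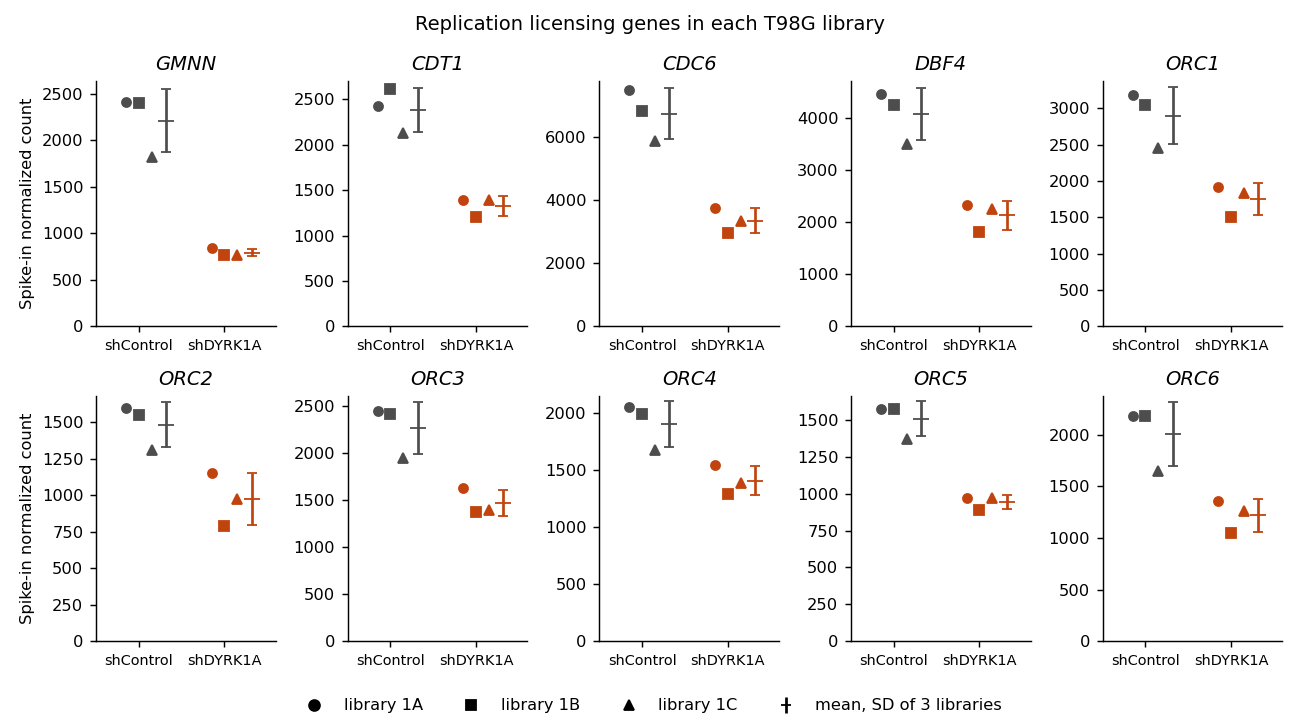
Spike-in normalized counts (y axis, from 0) of the 10 licensing genes in each library, with circles, squares and triangles for 1A, 1B and 1C and a bar for the mean and SD of 3 libraries. The shDYRK1A points lie below all shControl points in each panel, and relative to its shControl level shDYRK1A is lowest for GMNN (768 to 839 against 1821 to 2413) and highest for ORC4 (1292 to 1547 against 1676 to 2059).

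GMNN encodes geminin, the inhibitor of CDT1. Its transcript stood at 2413, 2399 and 1821 normalized counts in shControl, and at 839, 772 and 768 in shDYRK1A. The shDYRK1A libraries lay close together (793 ± 40.0, SD, n = 3) and far below the lowest shControl library. The log2 fold change was -1.48 (SE 0.15, 95% interval -1.78 to -1.18), and 32 of the 9697 genes lay lower. In CPM, a scale that takes no account of the spike-in, GMNN had 50.2, 50.1 and 45.4 in shControl and 22.9, 24.7 and 23.1 in shDYRK1A, and the TMM log2 fold change was -1.07 (95% interval -1.21 to -0.92).

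CDT1, the partner of geminin that brings the MCM helicase to origins, had 2424, 2611 and 2125 normalized counts in shControl and 1392, 1202 and 1392 in shDYRK1A. Its log2 fold change was -0.84 (SE 0.15, 95% interval -1.13 to -0.56), and -0.44 with TMM. CDT1 thus lost less of its transcript than its inhibitor: for each CDT1 count there were 0.995, 0.919 and 0.857 GMNN counts in shControl and 0.603, 0.642 and 0.552 in shDYRK1A. This ratio does not depend on the scaling, and the groups did not overlap.

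CDC6, the ATPase that completes the ring of the origin recognition complex, had the most counts of the 10, a number that also grows with transcript length. It stood at 7500.3, 6847 and 5894 normalized counts in shControl and at 3757, 2972 and 3329 in shDYRK1A, with a log2 fold change of -1.01 (SE 0.14, 95% interval -1.28 to -0.74) and -0.61 with TMM. The highest shDYRK1A library stayed well under the lowest shControl library. The count of CDC6 per CDT1 count overlapped between the groups (2.62 to 3.09 in shControl, 2.39 to 2.70 in shDYRK1A), whereas CDC6 per ORC1 did not, with 2.25 to 2.40 in shControl and 1.81 to 1.97 in shDYRK1A.

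DBF4, the regulatory subunit that activates the CDC7 kinase, had 4452, 4247 and 3502 normalized counts in shControl and 2322, 1814 and 2253 in shDYRK1A. The log2 fold change was -0.93 (SE 0.14, 95% interval -1.21 to -0.66), and -0.53 with TMM. DBF4 shares 3.10% of its exonic bases with SLC25A40 on the opposite strand, and whether counting used the strand was not given in the sources used here.

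Among the ORC subunits, ORC1 and ORC6 had the lowest fold changes, which differed from each other by far less than their errors, and ORC6 was the lower of them without shControl 1C or without shDYRK1A 1A. ORC1, the ATPase subunit whose protein level in human cells varies through the cell cycle, had 3191, 3049 and 2458 normalized counts in shControl and 1915, 1507 and 1835 in shDYRK1A, a log2 fold change of -0.73 (SE 0.14, 95% interval -1.01 to -0.44). ORC6, the smallest subunit and the most loosely held, had 2185, 2179.9 and 1649 counts in shControl and 1358, 1044 and 1259 in shDYRK1A, a log2 fold change of -0.72 (SE 0.15). ORC1 and ORC6 followed almost the same course over the 6 libraries: their centred log2 counts differed by a root mean square of 0.03, the closest of all pairs among the 10 genes.

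ORC2 to ORC5 form the body of the complex with ORC1. ORC5 had 1578, 1577 and 1373 normalized counts in shControl and 973, 887 and 974 in shDYRK1A, with a log2 fold change of -0.68 (SE 0.15). ORC3 had 2442, 2411 and 1949 counts in shControl and 1630.5, 1374 and 1394 in shDYRK1A, with a log2 fold change of -0.63 (SE 0.15). In both genes the groups stood apart, in ORC3 by a smaller margin.

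ORC2 had 1596, 1548 and 1309 counts in shControl and 1154, 791 and 976 in shDYRK1A, a log2 fold change of -0.61 (SE 0.15). ORC4 changed least, with 2059, 1992 and 1676 counts in shControl and 1547, 1292 and 1393 in shDYRK1A, a log2 fold change of -0.44 (SE 0.15, 95% interval -0.72 to -0.15). That is close to the median of all genes, and 44.7% of the genes lay lower than ORC4. In CPM its groups overlapped (41.6 to 42.8 in shControl and 41.4 to 42.2 in shDYRK1A), and the TMM log2 fold change was -0.03 (95% interval -0.14 to 0.08). Exons on the opposite strand overlap 6.58% of the exonic bases of ORC4 and 4.39% of those of ORC2.

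**Figure D2:**
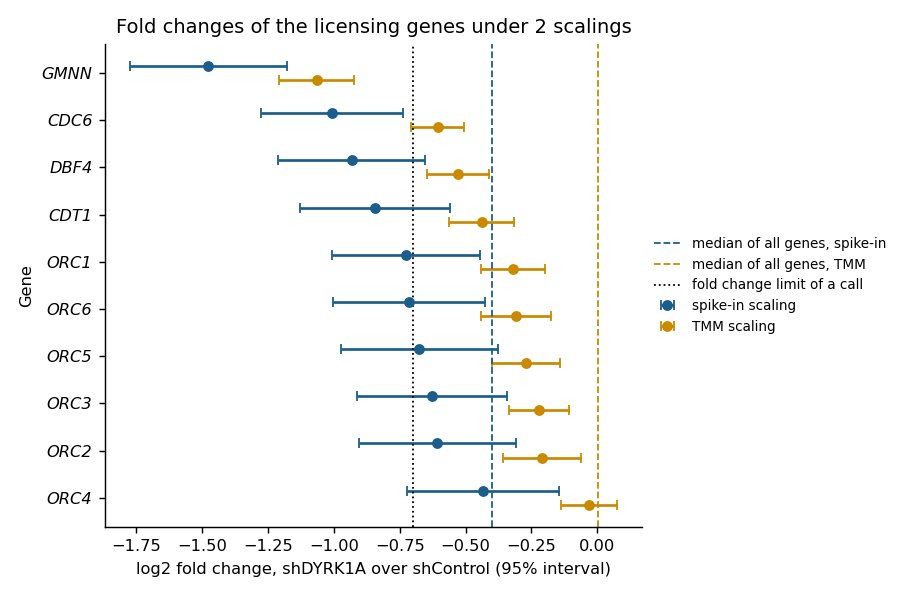
Log2 fold change of shDYRK1A over shControl (x axis) for the 10 genes, with 95% intervals, from the spike-in (blue) and the TMM (yellow) scaling; dashed lines give the median of all genes and the dotted line the limit of a call. The order of the genes runs from GMNN at -1.48 to ORC4 at -0.44 with the spike-in, and the distance of each gene from the median of all genes is kept on either scale by construction.

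The shControl libraries spread more on the spike-in scale than in CPM. The coefficient of variation of the 10 genes in shControl was 7.83 to 15.4% in normalized counts and 1.30 to 5.76% in CPM. In each of the 10 genes the lowest shControl library was 1C, the library with the largest size factor of its group (1.03), and in 9 of the 10 the lowest shDYRK1A library was 1B (GMNN was the exception), which also had the largest share of unmapped reads of all libraries (15.6%). The part of these library differences in the results was not tested, but values without each library are given below.

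By the rule that a gene is called at an adjusted p below 0.05 (edgeR quasi-likelihood test, Benjamini-Hochberg over all 9697 genes) and a log2 fold change below -0.7 or above 0.7, 6 of the 10 were called lower: GMNN, CDC6, DBF4, CDT1, ORC1 and ORC6. Of all genes 14.3% were called lower by this rule. None of the 10 was called higher, against 0.278% of all genes. By the adjusted p alone all 10 were lower, against 63.4% of all genes. Since the genes were chosen with this contrast known, nothing is read from these shares. ORC1 and ORC6 stood just inside the fold change limit, at -0.73 and -0.72, and ORC5 just outside, at -0.68.

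Calls near the limit turned on single libraries. When 1 of the libraries 1A or 1B of shControl or 1B of shDYRK1A was dropped, ORC1 (-0.65, -0.69 and -0.63) and ORC6 (-0.65, -0.65 and -0.61) were no longer called, which left 4 of the 10. Without shControl 1C, ORC3 (-0.73) and ORC5 (-0.74) came in, and without shDYRK1A 1A, ORC2 (-0.75) and ORC3 (-0.71) did, which made 8. The calls over all genes moved the same way, from 1386 of 9697 genes with all libraries. They fell to 1064 of 9613, 1108 of 9639 and 920 of 9719 without shControl 1A, shControl 1B and shDYRK1A 1B. They rose to 2084 of 9727 without shControl 1C and to 2098 of 9693 without shDYRK1A 1A. GMNN, CDC6, DBF4 and CDT1 stayed called whichever of the 6 libraries was dropped.

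With TMM scaling only GMNN was called lower, against 1.93% of all genes. By the adjusted p alone 9 of the 10 remained lower on that scale (all but ORC4), against 28.6% of all genes, and the same 9 had every shDYRK1A library below every shControl library in CPM, against 29.3%. Changing the scale moves all genes by about the same amount, so the distance of a gene from the median of all genes is kept by construction. The median log2 fold change of the 10 was -0.72, which is 0.32 below that of all genes (-0.40), and with TMM it was -0.31 beside 0.00.

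**Figure D3:**
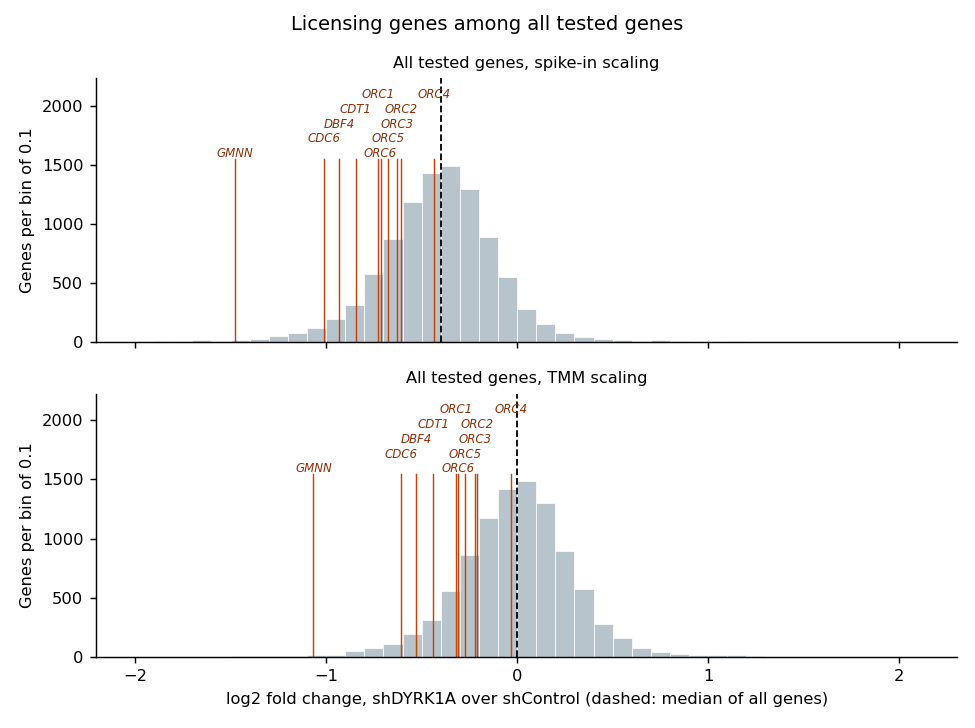
Number of genes per bin of 0.1 in log2 fold change (x axis) for all tested genes, with spike-in scaling above and TMM scaling below; red lines mark the 10 licensing genes and the dashed line the median of all genes (-0.40 and 0.00). GMNN stands in the lower tail with 32 genes below it on the spike-in scale, and ORC4 stands next to the median on both.

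The share of all human counts that fell on the 10 genes shows the same without any scaling by the spike-in. It was 0.0620, 0.0603 and 0.0592% in shControl, and 0.0461, 0.0437 and 0.0468% in shDYRK1A. The 95% Wilson intervals, which cover counting error only, ran from 0.0585 to 0.0628% over the shControl libraries and from 0.0430 to 0.0474% over the shDYRK1A libraries. Within the ORC genes the proportions differed between the groups, narrowly for ORC1. ORC1 made up 24.4, 23.9 and 23.6% of the counts of the 6 subunits in shControl and 22.3, 21.9 and 23.4% in shDYRK1A, while ORC4 made up 15.8, 15.6 and 16.1% in shControl and 18.0, 18.7 and 17.8% in shDYRK1A. For each ORC4 count there were 1.17, 1.20 and 1.09 GMNN counts in shControl and 0.542, 0.597 and 0.552 in shDYRK1A. This was the widest shift among the ratios computed, as it had to be. GMNN and ORC4 have the lowest and the highest fold change of the 10, so the ratio restates those values.

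Levels of different genes can be set side by side only per length of transcript. In CPM per kb of all annotated exons, CDC6 was highest in shControl (26.8 ± 1.19, SD, n = 3). ORC1 (20.2 ± 0.803), GMNN (19.6 ± 1.11) and DBF4 (19.5 ± 0.594) followed and did not differ beyond their spread, and then came CDT1 (15.8 ± 0.633), ORC3 (13.5 ± 0.318), ORC6 (10.2 ± 0.589) and ORC5 (8.95 ± 0.207). ORC2 (5.61 ± 0.0728) and ORC4 (4.72 ± 0.0721) were lowest. In shDYRK1A the order was the same except for GMNN, which dropped to 9.52 ± 0.405 CPM per kb and so stood between ORC3 (11.8 ± 0.377) and ORC6 (8.38 ± 0.543). The ORC3 and CDT1 levels (11.8 ± 0.621) were then within their spread, as were those of ORC6 and ORC5 (7.53 ± 0.371) and of ORC2 (4.92 ± 0.534) and ORC4 (4.69 ± 0.0462).

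**Figure D4:**
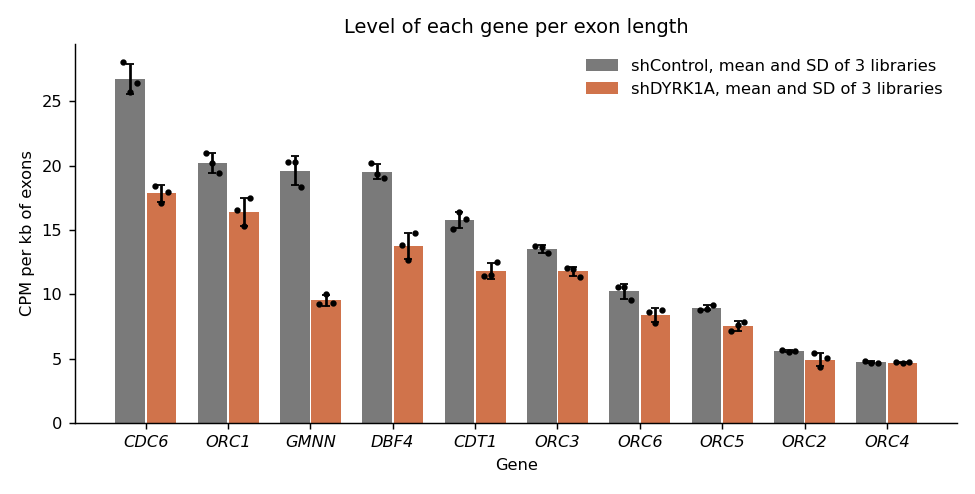
CPM per kb of exons (y axis, from 0) for each gene, ordered by the shControl mean; bars give the mean and SD of 3 libraries in shControl (grey) and shDYRK1A (orange) and dots the libraries. GMNN goes from the level of ORC1 and DBF4 in shControl (19.6 against 20.2 and 19.5) to below ORC3 in shDYRK1A (9.52 against 11.8), and ORC4 stays at 4.72 and 4.69.

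The order between genes depends on the length used. Per kb of the principal transcript, which for GMNN is 1.26 kb against 2.48 kb of all annotated exons, GMNN was highest in shControl (38.5 ± 2.19 CPM per kb), before CDC6 (30.9 ± 1.37) and ORC6 (27.1 ± 1.56). ORC4 was lowest by either length (6.27 ± 0.0958 CPM per kb of the principal transcript), so the 6 subunits of 1 complex had unequal values by both. Which transcripts of each gene the cells used was not measured.

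The genes that act with these 10 were taken from 3 lists of 42 genes in all, every one of which passed the filter. By the adjusted p alone 39 of the 42 were lower in shDYRK1A and 28 were called lower, with a median log2 fold change of -0.81. None was called higher. As for the 10 genes, the lists were drawn up with results of these data known, and the values stand beside 63.4% and 14.3% of all genes. With TMM scaling 35 were lower and 3 higher by the adjusted p, beside 28.6% and 27.3% of all genes on that scale. By the full rule 5 were called lower with TMM (CCNE2, DTL, CUL4A, CCNE1 and GINS1), beside 1.93% of all genes. KAT7, DBF4B, RECQL4 and DDB1 passed with the spike-in and not with TMM.

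Of the 11 genes of MCM loading, 10 were lower by the adjusted p, 7 of these were called, and the median was -0.81. The 6 subunits of the helicase that ORC, CDC6 and CDT1 load were all lower: MCM6 (-0.95, adjusted p 1.57e-10), MCM4 (-0.93, 1.10e-10), MCM3 (-0.83, 1.04e-08), MCM2 (-0.81, 4.69e-08), MCM5 (-0.75, 4.43e-07) and MCM7 (-0.53, 0.000227). MCM7 was the only helicase subunit outside the fold change limit. MCM10, which joins the active helicase, changed by -0.92 (adjusted p 2.15e-08). The highest values were those of KAT7 (-0.46, adjusted p 0.00286), a histone acetyltransferase of origins, and of LRWD1 (-0.19, adjusted p 0.255), a protein that binds ORC and which with TMM was higher (0.21, adjusted p 0.0151).

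Of the 14 genes of origin firing, which turn a loaded helicase into a moving one, all were lower by the adjusted p, 11 were called, and the median was -0.84. The lowest were GINS1 (-1.11, adjusted p 5.44e-12), CLSPN (-1.07, 1.00e-10) and GINS4 (-1.01, 9.66e-11), which code for parts of the GINS complex and for the checkpoint mediator claspin. The highest were DBF4B (-0.47, adjusted p 0.00417), RECQL4 (-0.49, 0.00109) and GINS3 (-0.57, 0.000739). DBF4B is the paralog of DBF4 and also activates CDC7, so of the activators of that kinase DBF4 stood at -0.93 and DBF4B at -0.47.

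Of the 17 genes that govern the turnover of licensing factors or their control by cyclin-dependent kinases, 15 were lower by the adjusted p, 10 were called, and the median was -0.74. The lowest were CCNE2 (-1.20, adjusted p 1.21e-12), a cyclin of the G1 to S transition, DTL (-1.18, 1.04e-14) and CUL4A (-1.16, 5.49e-15). DTL and CUL4A code for the substrate receptor and a scaffold of the ubiquitin ligase that destroys CDT1 in S phase. CUL4B, the other CUL4 gene listed, changed by -0.68 (adjusted p 8.35e-06) and was not called. DDB1, the adaptor of that ligase, changed by -0.39 (adjusted p 0.00636, and 0.01 with TMM). RBX1, its RING subunit, did not pass (-0.19, adjusted p 0.230), nor did FZR1 (-0.10, 0.526), the activator of the ligase that marks geminin for destruction in G1. With TMM both were higher (0.23, adjusted p 0.0212, and 0.30, adjusted p 0.00174).

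GMNC and MCIDAS, the paralogs of geminin in multiciliated cells, had 0 and 1 counts in the 6 libraries together and could not be compared. Geminin was therefore the only member of its family with measurable transcript here.

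**Figure D5:**
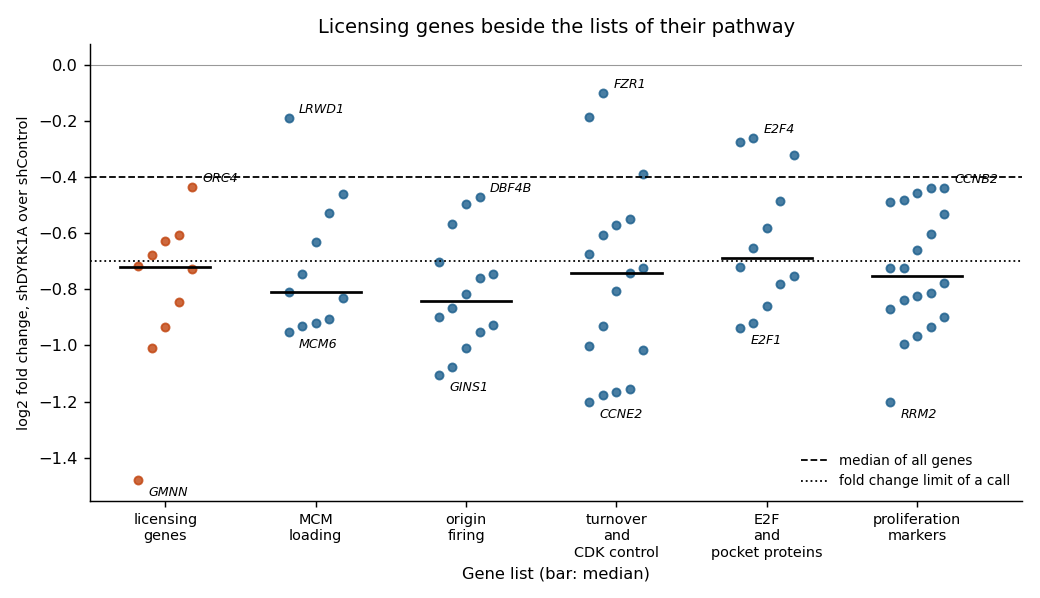
Log2 fold change with spike-in scaling (y axis) for each gene of the licensing set (red) and of 5 lists (blue), with the lowest and highest of each named and a bar at the median; the dashed line is the median of all genes and the dotted line the limit of a call. The medians of the lists lie between -0.84 and -0.69, that of the licensing genes at -0.72, and GMNN (-1.48) lies under each gene of the 5 lists.

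E2F factors and the pocket proteins that restrain them are the known regulators of several of the 10 genes. Of the 13 listed, 12 passed the filter (E2F5 did not), 10 of these were lower by the adjusted p and 6 were called, beside 63.4% and 14.3% of all genes, with a median of -0.69 beside -0.40. The activating factors E2F1 (-0.94, adjusted p 6.81e-10), E2F2 (-0.92, 1.67e-07) and E2F3 (-0.86, 1.55e-07) were lowest. Next came RBL1 (-0.78, 1.80e-06), which codes for the pocket protein p107, and the repressors E2F7 (-0.75, 5.50e-06) and E2F8 (-0.72, 9.34e-05).

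RB1 (-0.65, adjusted p 3.02e-05), TFDP2 (-0.58, 0.000224), E2F6 (-0.48, 0.00381) and TFDP1 (-0.32, 0.0286) passed the adjusted p without reaching the fold change limit. RBL2 (-0.28, adjusted p 0.0682) and E2F4 (-0.26, 0.0848), which take part in repression in resting cells, did not pass. E2F4 was higher with TMM (0.15, adjusted p 0.0187), while E2F6 (-0.08), TFDP1 (0.08) and RBL2 (0.12) did not pass on that scale. The 5 licensing genes with an E2F core word in the promoters printed above were GMNN (-1.48), CDC6 (-1.01), CDT1 (-0.84), ORC1 (-0.73) and ORC3 (-0.63). The 5 without it were DBF4 (-0.93), ORC6 (-0.72), ORC5 (-0.68), ORC2 (-0.61) and ORC4 (-0.44). The ranges overlapped, and a link between the word and the fold change was not tested.

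Markers of proliferation were lower in shDYRK1A too, as were most genes. All 20 were lower by the adjusted p and 12 were called, beside 63.4% and 14.3% of all genes, with a median of -0.75 beside -0.40. RRM2 (-1.20, adjusted p 1.90e-16), which codes for a subunit of the enzyme that makes deoxyribonucleotides, was lowest, and the mitotic cyclins CCNB2 (-0.44, 0.00375) and CCNB1 (-0.44, 0.00220) were highest. With TMM all 20 were below 0 and 14 passed, beside 28.6% of all genes that were lower by the adjusted p. Their summed level ran from 3781 to 3891 CPM in shControl and from 3023 to 3243 CPM in shDYRK1A, and none of them was at 0. The part of the share of dividing cells in the lower licensing transcripts was not tested.

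Several of the genes start next to another gene that is read the other way, so the value of the neighbour can be set beside that of the licensing gene. Of the 10 genes, 6 have such a neighbour within 1000 bases, and 5 of the neighbours passed the filter (AC005037.1, beside ORC2, with 33 counts in all, did not). SLC25A40, 141 bases from DBF4, changed by -0.54 (SE 0.15, adjusted p 0.00111) where DBF4 changed by -0.93. PRPF38A, 105 bases from ORC1, did not pass (-0.29, SE 0.14, adjusted p 0.0534), and was higher with TMM (0.11, adjusted p 0.0392) where ORC1 stood at -0.32. The difference within these pairs was not tested.

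For the other 3 the values lay closer to each other. RARS2, 64 bases from ORC3, changed by -0.45 (SE 0.15, adjusted p 0.00475) beside -0.63. MBD5, 593 bases from ORC4, changed by -0.42 (SE 0.16, adjusted p 0.0153) beside -0.44, and VPS35, 125 bases from ORC6, by -0.61 (SE 0.13, adjusted p 2.98e-05) beside -0.72. GMNN, CDT1, CDC6 and ORC5 have no such neighbour.

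The course of GMNN over the 6 libraries was compared with that of each tested gene by the root mean square difference of centred log2 normalized counts, where 0 is the same course. The closest 5 were UAP1 (0.0621), AKR1B10 (0.0624), EXOSC8 (0.0691), TAF11 (0.0700) and INSIG1 (0.0739), with log2 fold changes from -1.55 (TAF11) to -1.38 (EXOSC8). None of them belongs to a list used here. The closest licensing gene was CDC6, at rank 256 (0.245), then DBF4 at rank 414 (0.285), CDT1 at rank 620 (0.325) and ORC1 at rank 1175 (0.383), and the farthest was ORC4 at rank 4205 (0.521). The points share libraries and depth, and the measure largely follows the fold change.

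Each of the other licensing genes had a nearest licensing gene other than GMNN. Not all were closer to each other than to GMNN, since CDC6 lay nearer to GMNN (0.245) than to ORC4 (0.289). After ORC1 with ORC6 (0.0311), the closest pairs were CDC6 with DBF4 (0.0635), ORC3 with ORC5 (0.0800) and CDT1 with DBF4 (0.0835). For each of the 9 others the distance to GMNN (0.245 to 0.521) was larger than that to its nearest licensing gene.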

How the data were processed

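RNA of 3 shControl and 3 shDYRK1A libraries of T98G cells was measured by stranded paired-end mRNA-seq. The authors deposited raw counts per gene for each library, and per the labels STAR and DESeq2 were used with the hg38 and dm3 builds. A second deposited table holds normalized signal, which equals the counts divided by 1 constant per library, derived by the authors from the Drosophila reads; these constants served as size factors. Another table, with the authors' own comparison (fold changes, p-values), was not used. Groups came from the sample titles, and 0 columns matched no sample. Coordinates of 95.7% of the genes equalled GENCODE v29 on GRCh38, whose exons gave lengths and neighbours.

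Genes with a mean above 10 normalized CPM (9697) were tested with edgeR 4.0.16 (glmQLFit, robust, glmQLFTest) in R 4.3.3, with Benjamini-Hochberg adjustment over all of them. A call needed a log2 fold change below -0.7 or above 0.7 beside an adjusted p below 0.05. The SE is the fold change over the square root of F. Its fit shares the estimate of spread between genes, so the SE is not the spread of 1 gene. For the 10 genes it was 0.14 to 0.15 with the spike-in and 0.05 to 0.07 with TMM. Total counts of 33708297 to 42154438 per library left 833 to 6161 raw counts per licensing gene and library. The script was tested on simulated data. The alternatives comprised scaling by TMM or by median of ratios, DESeq2 1.42.0, other filters, the replicate letter as a block, leaving out each library, and the adjusted p alone. Named were all 10 licensing genes, DYRK1A, MCM2 to MCM7, the 3 lowest and 3 highest of each partner list, all E2F and pocket proteins tested, the 2 lowest and 2 highest proliferation markers (1 of these is not reported here), and the 5 genes most like GMNN. TMM calls, neighbours and CUL4B were named after their values were seen. The genes and lists were chosen with earlier results of these data known. Promoters came from RefSeq (GRCh38.p14), where all 10 genes matched, as did 33 of the 42 partners.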

Additional observations from a re-analysis of the deposited data

How the results depend on the processing

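With human-gene scaling the number of licensing genes called lower went from 6 to 1 (TMM) and 1 (median-of-ratios), and that of pathway partners from 28 to 5 and 5, because both scalings set the median of all genes near 0. By the adjusted p alone 10 licensing genes and 39 partners were lower; ORC4 lost this without shControl 1A (adjusted p 0.0776) or shDYRK1A 1C (0.0589) in edgeR. The median of the licensing genes minus that of all genes was -0.32, and -0.39 with no filter beyond 1 count, where 32001 genes were tested; its range over the other settings was -0.29 to -0.35. Leaving out 1 library gave 4 to 8 licensing genes and 21 (without shDYRK1A 1B) to 31 (without shControl 1C) partners. Over all genes it gave from 920 of 9719 called lower (without shDYRK1A 1B) to 2098 of 9693 (without shDYRK1A 1A). DESeq2, filterByExpr and no filter gave 6 and 28. None of the log2 fold changes of the 10 genes changed sign. With the replicate block 6 licensing genes and 28 partners were called. Same-letter libraries correlated at 0.15, 0.07 and 0.13 in their deviations, each best with its own letter, a hint from the data; the labels give no pairing, and the letters were not used as pairs. Depth did not limit these genes (at least 833 counts per library); 3 libraries per group set the precision.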
